A study of Mus musculus with 6 samples.

Results

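The genes described here encode the digestive machinery of the lysosome. They comprise 10 cathepsins, 11 enzymes and cofactors that digest lipids and glycans, 8 membrane and cholesterol export proteins, 3 transcription factors of the MiT/TFE family, and 15 subunits of the proton pump (6 of the V0 sector, 7 of the V1 sector and 2 accessory subunits). The 47 genes were taken from a list of symbols and found through their NCBI gene identifiers, and all 47 were among the 19790 genes counted. The RNA came from gonadal white adipose tissue (gWAT), a visceral fat depot attached to the epididymis in males, of wild-type C57BL/6 mice. In one group, 3 mice were fed a normal chow diet (NCD), and in the other 3 mice were fed a high-fat diet (HFD), both for 8 weeks. The labels place the start of feeding at 6 weeks of age, the methods place it later, and the methods describe the mice as adult males. Diet is the only difference the labels give between the groups, so the comparison asks which transcripts of the fat pad differ after high-fat feeding. The labels number the libraries of each diet as replicates, and the p-values weigh the diet difference against the spread between these libraries. In the deposited counts the library titled HFD replicate 3 carries a different number.

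Lysosomes break down proteins, lipids, glycans and whole organelles delivered by endocytosis, phagocytosis and autophagy. The V-ATPase pumps protons into the lumen: its cytosolic V1 sector hydrolyses ATP, and its membrane-embedded V0 sector carries the protons, which gives the acid pH at which the hydrolases work. In adipose tissue of obese mice, macrophages gather around dying adipocytes and take up their lipid, and lysosomal acid lipase then releases fatty acids and cholesterol from it. In bulk tissue, fewer or more cells of a type and less or more RNA per cell cannot be told apart.

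The libraries held between 49575113 and 66360046 counts, of which the 47 lysosomal genes took 0.360%, 1.02% and 1.13% in NCD replicates 1, 2 and 3, and 3.28%, 2.24% and 2.61% in HFD replicates 1, 2 and 3. Markers of adipocytes such as *Adipoq*, *Plin1* and *Fabp4* were counted in every library, as the labelled tissue requires. NCD replicate 1 stood apart: 58.6% of its counts fell on 11 secretory genes of the seminal vesicle, against 11.2% and 2.30% in NCD replicates 2 and 3 and almost none on HFD. Its markers of epithelium summed to 1372 CPM and its markers of smooth muscle to 6884, against at most 156 and 839 in any other library. The results are therefore given with and without that library. Leaving it out keeps the 11.2% and 2.30% of the other NCD libraries, so seminal vesicle RNA still goes with the diet. Its part in the diet differences cannot be told apart from the diet here and was not tested. Levels are CPM, the counts relative to the library total scaled by the TMM method of edgeR, and FPKM is the same level per kilobase of exon.

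Every one of the 12 lysosomal genes that passed the test was higher in gWAT of HFD-fed mice. They were the cathepsins *Ctsa*, *Ctsh*, *Ctsl*, *Ctss* and *Ctsz*, the hydrolases *Gla* and *Asah1*, the cholesterol exporter *Npc1*, the macrophage glycoprotein *Cd68*, the transcription factor *Mitf*, and the pump subunits *Atp6v0c* and *Atp6v0d2*. The separate value of *Atp6v0c* is uncertain, because its counts and those of a pseudogene trade places between the diets, as described below. The test was the quasi-likelihood test of edgeR, with p-values adjusted by Benjamini-Hochberg over 15241 genes and a threshold of 0.05. In that fit 5.58% of all genes were higher on HFD and 1.9% were lower. The count of lower members was 0 with edgeR, near the 1.9% of all genes, and 0 with DESeq2. In the DESeq2 fit 3904 of 15241 genes were called, 2153 of them higher. An unadjusted p under 0.05 was found in 29 of the 47 with edgeR and 30 with DESeq2, beside 4524 and 5469 of all 15241 genes. The median log2 fold change of the 47 genes was 0.83, beside -0.08 over all genes tested, and 42 of the 47 had a positive value. In 32 of them the lowest HFD value exceeded the highest NCD value, an arrangement found in 20.5% of all genes tested.

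Without NCD replicate 1, 20 lysosomal genes were higher and 0 were lower, beside 10.7% and 10.1% of all genes, with a median log2 fold change of 0.76 against 0.02 over all genes. The 8 genes that passed the test there but not over 6 mice were *Ctsb*, *Lipa*, *Gusb*, *Hexa*, *Psap*, *Cd63*, *Scarb2* and *Atp6ap2*. DESeq2 called 27 lysosomal genes higher, beside 14.1% of all genes. The count fell to 1, *Atp6v0c*, when any mouse other than NCD replicate 1 was left out (NCD replicate 2 or 3, or HFD replicate 1, 2 or 3). Between 2 and 7 genes of the whole table passed the test in those fits. With *Atp6v0c* and its pseudogene summed, 0 lysosomal genes passed when any of those mice was left out.

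**Figure D1:**
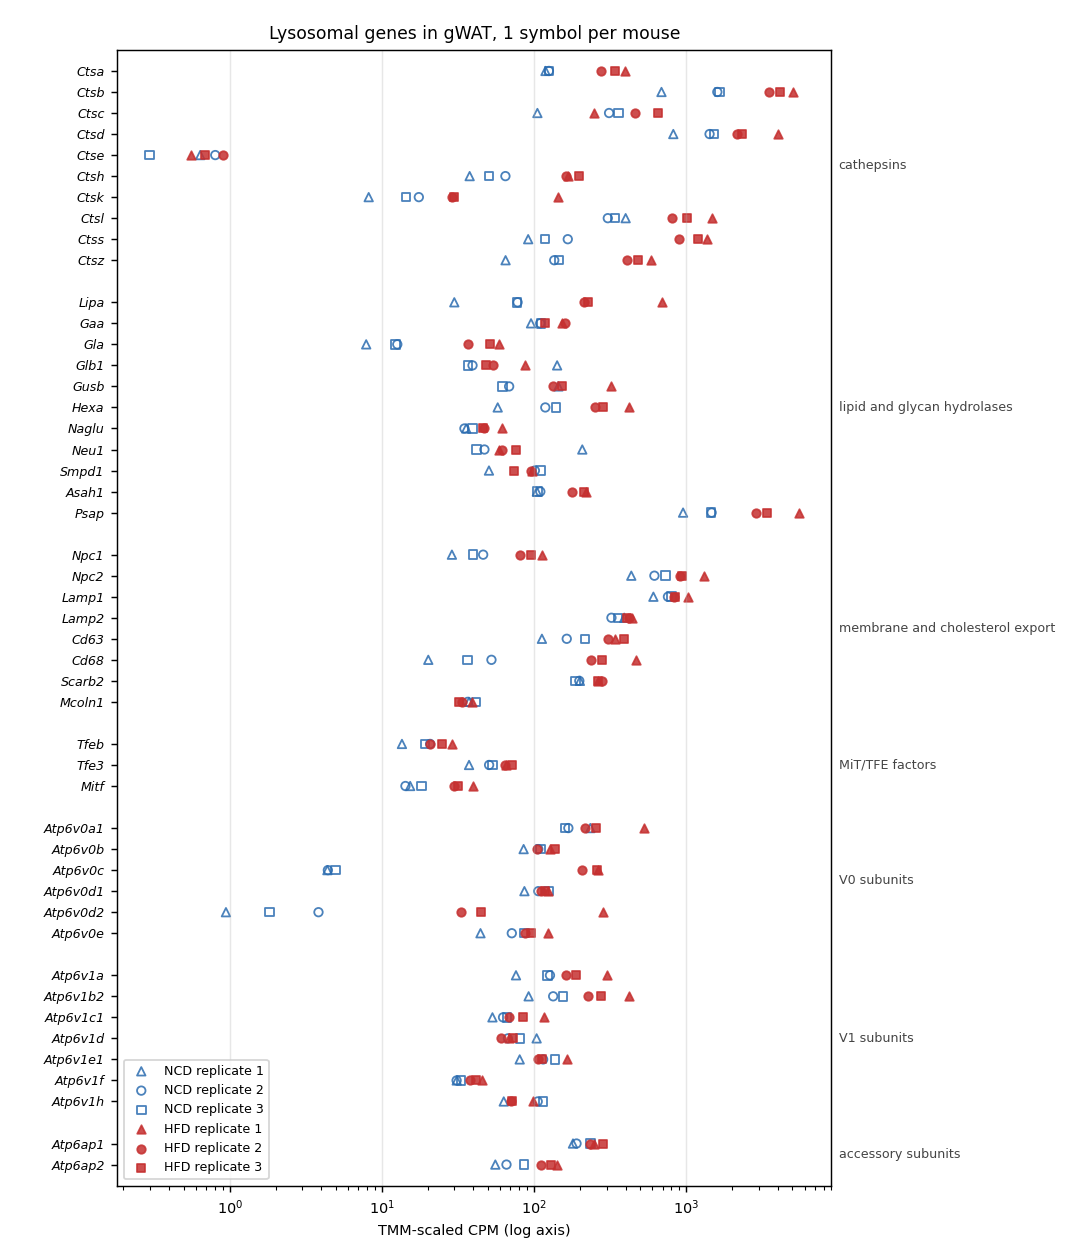
TMM-scaled CPM of each of the 47 lysosomal genes on a logarithmic axis, with 1 symbol per mouse, open and blue for NCD and filled and red for HFD, grouped by role. HFD symbols lie to the right of all NCD symbols in 32 genes, and the triangle of HFD replicate 1 is the highest HFD value in 36.

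The MiT/TFE factors bind E-box motifs in front of lysosomal genes and switch them on together. *Mitf* (NCBI gene 17342, chr6:97807002-98021360) had 15.3, 14.3 and 18.2 CPM in the NCD mice (here and below in the order of replicates 1, 2 and 3) and 39.6, 29.96 and 31.6 CPM in the HFD mice. All HFD values lay above all NCD values, and the log2 fold change was 1.08 ± 0.18 (standard error, SE; edgeR adjusted p = 0.028). *Tfe3* stood at 37.4, 50.7 and 53.2 CPM on NCD and at 65.5, 64.4 and 72.1 on HFD. The diets of *Tfe3* did not overlap, but its log2 fold change of 0.52 (95% interval 0.09 to 0.94) did not pass the test (adjusted p = 0.116 from edgeR). DESeq2 called *Tfe3* higher over the same 6 mice (adjusted p = 0.0463). *Tfeb*, the best known of these regulators, read 13.5, 20.7 and 19.2 CPM on NCD and 28.9, 20.6 and 24.7 on HFD. Its diets overlapped, and the log2 fold change was 0.47 (95% interval -0.08 to 1.02). Per kilobase the 3 transcripts had means of 6.34 FPKM for *Mitf*, 6.16 for *Tfeb* and 18.6 for *Tfe3* on HFD.

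The motif these factors bind was looked for in RefSeq promoters of build GRCm38.p6, from 250 bases before to 50 bases after each gene start. TCACGTG, read on either strand, was present in 12 of the 38 lysosomal genes with a promoter entry (31.6%), beside 4.29% of 27025 genes. Its core CACGTG was present in 13 of the 38 (34.2%, beside 8.09%), and its palindromic form TCACGTGA, which contains both shorter motifs, in 7 of the 38 (18.4%, beside 1.12%). The 30-base windows below carry it in front of a gene that rose on HFD (*Gla*), of genes with higher values that edgeR did not call (*Ctsd* and *Atp6v1a*, both called by DESeq2, and *Lamp1*) and of one whose diets overlapped (*Mcoln1*), with the motif in capitals and each written 5′ to 3′ on the strand of its gene.
Gla, chrX:134601215-134601244, minus strand, 227 bases before the start: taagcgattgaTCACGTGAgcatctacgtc
Gla, chrX:134601182-134601211, minus strand, 194 bases before the start: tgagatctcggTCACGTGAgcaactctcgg
Ctsd, chr7:142387908-142387937, minus strand, 98 bases before the start: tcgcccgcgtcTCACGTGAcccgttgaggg
Atp6v1a, chr16:44139373-44139402, minus strand, 131 bases before the start: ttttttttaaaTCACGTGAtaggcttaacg
Lamp1, chr8:13159088-13159117, plus strand, 61 bases before the start: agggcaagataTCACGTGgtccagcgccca
Mcoln1, chr8:3500462-3500491, plus strand, 45 bases before the start: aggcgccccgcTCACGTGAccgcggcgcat

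The order of the median fold changes of genes with and without the motif depended on its form. Of the 12 with TCACGTG, 2 (*Ctsa* and *Gla*) were higher on HFD, with a median log2 fold change of 0.47, while 6 of the 26 without it were higher, with a median of 0.85. Without NCD replicate 1 the counts were 2 of 12 and 13 of 26, and the medians 0.44 and 0.82. For the core CACGTG, 3 of 13 with it and 5 of 25 without it were higher, with medians of 0.49 and 0.83. Without NCD replicate 1 these counts were 3 of 13 and 12 of 25, and the medians 0.49 and 0.76. For the palindromic form the order of the medians was the other way. Of the 7 with TCACGTGA 2 were higher, with a median log2 fold change of 1.00, and 6 of the 31 without it, with a median of 0.82. Without NCD replicate 1 its medians were 0.81 and 0.65, but its counts were 2 of 7 and 13 of 31. A match of letters is a description of the promoter and was not tested as a binding site.

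The cathepsins, the proteases of the lysosome, held the largest share of called genes among the roles: 5 of 10 were higher over 6 mice and 6 of 10 without NCD replicate 1, with a median log2 fold change of 1.67. *Ctss* (NCBI gene 13040, chr3:95526786-95556405), a cysteine protease that trims the invariant chain of MHC class II in antigen-presenting cells, had 91.5, 167 and 118 CPM on NCD and 1363, 897 and 1196 CPM on HFD. The lowest HFD value was far above the highest NCD value, and the 9.17-fold difference corresponded to a log2 fold change of 3.20 ± 0.35 SE (edgeR adjusted p = 0.0212). *Ctsz*, a carboxypeptidase, stood at 65.0, 136 and 146 CPM on NCD and at 586, 407 and 482 on HFD, a 4.26-fold difference (adjusted p = 0.03 from edgeR). *Ctsh*, an aminopeptidase, read 37.7, 64.9 and 50.7 CPM on NCD against 168, 162 and 198 on HFD, a 3.44-fold difference (adjusted p = 0.0219 from edgeR). In both genes the diets were well separated and the HFD mice lay close together.

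*Ctsl*, a broad endopeptidase, was the one of these with its highest NCD value in replicate 1: it stood at 400, 306 and 342 CPM on NCD and at 1476, 804 and 1014 on HFD. The diets did not overlap, and the log2 fold change was 1.65 ± 0.32 SE (edgeR adjusted p = 0.0372). *Ctsa*, a carboxypeptidase that also stabilises the sialidase and beta-galactosidase, was nearly constant on NCD at 119, 125 and 126 CPM and read 399, 275 and 342 on HFD, a 2.75-fold difference (adjusted p = 0.0219 from edgeR). Its transcript shares 316 bases with its neighbour *Pltp*, which read higher on HFD by 2.41 on the log2 scale without passing the test, and 297 bases with *Neurl2*, and the sources used here do not say whether the counting used strand.

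The most abundant lysosomal proteases per kilobase were *Ctsd* and *Ctsb*. *Ctsd*, the aspartic protease, had 591 ± 178 FPKM on NCD and 1336 ± 488 on HFD (SD, n = 3 mice), and *Ctsb* 278 ± 115 and 892 ± 165. *Ctsb* read 688, 1603 and 1657 CPM on NCD and 5049, 3492 and 4152 on HFD, with no overlap. Its log2 fold change of 1.68 (SE 0.50) did not pass the test over 6 mice (adjusted p = 0.0902 from edgeR) and passed it without NCD replicate 1, where the value was 1.39 (adjusted p = 0.0295). *Ctsb* shares 774 bases with *Fdft1*, a neighbour with lower values on HFD (log2 fold change -1.19, adjusted p = 0.0539). *Ctsd* read 823, 1426 and 1522 CPM on NCD and 4037, 2168 and 2322 on HFD, and did not pass in either fit (adjusted p = 0.149 and 0.114 from edgeR).

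The remaining cathepsins did not pass the test in edgeR over 6 mice. *Ctsk*, a collagen-degrading protease best known from osteoclasts, read 8.19, 17.5 and 14.4 CPM on NCD and 144, 28.97 and 29.7 on HFD. Its log2 fold change was 2.34 (SE 0.73), not past edgeR's test over 6 mice. DESeq2 called it higher over the same mice (adjusted p = 0.00675). So did edgeR without NCD replicate 1 and HFD replicate 1 (log2 fold change 0.88, adjusted p = 0.0179). In *Ctsk* HFD replicate 1 was 4.92 times the mean of the other HFD mice. *Ctsc*, which activates the serine proteases of neutrophils, showed the opposite order, with 248, 461 and 655 CPM in HFD replicates 1, 2 and 3 against 105, 312 and 358 on NCD. Its diets overlapped. The 5 neutrophil markers summed to 20.2, 152 and 413 CPM in the same 3 HFD mice and to at most 9.55 on NCD, with *Ly6g* at or near 0, and their part in *Ctsc* was not tested. *Ctse*, an aspartic protease, was hardly present, at 0.298 to 0.899 CPM.

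Among the lipid and glycan hydrolases 2 of 11 were higher over 6 mice and 6 of 11 without NCD replicate 1, with a median log2 fold change of 0.93 in both. *Gla* (NCBI gene 11605, chrX:134588169-134601005), alpha-galactosidase A, which removes galactose from globo-series glycolipids, read 7.88, 12.6 and 12.3 CPM on NCD and 59.2, 37.1 and 51.3 CPM on HFD. The diets were far apart and the difference was 4.49-fold (log2 fold change 2.17 ± 0.27 SE, edgeR adjusted p = 0.0215). *Asah1*, acid ceramidase, had the narrowest spread of the called genes on NCD, with 104, 110 and 105 CPM, and read 221, 178 and 212 on HFD, a 1.91-fold difference (adjusted p = 0.0287 from edgeR).

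*Lipa*, lysosomal acid lipase, had the largest fold of the group but an uneven one. It read 29.9, 77.96 and 77.6 CPM on NCD and 694, 214 and 228 on HFD. HFD replicate 1 was 3.14 times the mean of the other HFD mice and NCD replicate 1 was 0.385 times the mean of the other NCD mice. The log2 fold change was 2.61 ± 0.63 SE (edgeR adjusted p = 0.0593) over 6 mice and 2.29 (adjusted p = 0.0468) without NCD replicate 1. With HFD replicate 1 left out as well it was 1.5 (SE 0.12, adjusted p = 0.00884).

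*Psap*, precursor of the saposins that present sphingolipids to their hydrolases, was the most abundant lysosomal transcript per kilobase on HFD at 1434 ± 511 FPKM (SD, n = 3 mice). It read 955, 1471 and 1457 CPM on NCD and 5522, 2863 and 3418 on HFD. *Hexa*, the alpha subunit of beta-hexosaminidase, read 57.7, 119 and 140 CPM on NCD and 418, 251 and 283 on HFD. Neither gene overlapped between the diets, and both passed the test when NCD replicate 1 was left out but not over 6 mice with TMM scaling (adjusted p = 0.0484 for *Psap* and 0.0238 for *Hexa* from edgeR, against 0.0819 and 0.061 over 6 mice). Over 6 mice *Hexa* passed it when scaled by total counts outside the secretory genes (adjusted p = 0.0411 from edgeR). *Hexa* shares 255 bases with *Tmem202*, which had at most 171 counts in a library.

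*Gusb*, *Glb1* and *Neu1* were the members that exceeded 2 times the mean of the other NCD mice in NCD replicate 1, the library rich in seminal vesicle RNA. *Neu1*, the lysosomal sialidase, read 208, 47.2 and 41.8 CPM on NCD and 59.1, 61.9 and 76.1 on HFD. *Glb1*, beta-galactosidase, read 142, 39.4 and 36.7 CPM on NCD and 86.8, 53.8 and 48.6 on HFD. In both genes the HFD mice lay between NCD replicate 1 and the other NCD mice, and the direction turned when that library was left out: from -0.59 to 0.58 for *Neu1* and from -0.20 to 0.74 for *Glb1* on the log2 scale, neither past the test (adjusted p = 0.0519 and 0.102 from edgeR). *Gusb*, beta-glucuronidase, read 145, 68.6 and 61.9 CPM on NCD and 323, 134 and 154 on HFD, and its log2 fold change went from 1.15 (adjusted p = 0.173) to 1.65 (adjusted p = 0.043). With HFD replicate 1 left out as well, *Neu1* was called higher (log2 fold change 0.63, adjusted p = 0.039 from edgeR). *Glb1* was not called there (0.43, adjusted p = 0.0555).

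The other hydrolases differed little. *Gaa*, acid alpha-glucosidase, had a log2 fold change of 0.45 (95% interval 0.02 to 0.88), and *Naglu*, which degrades heparan sulfate, one of 0.49 (95% interval 0.09 to 0.89). Neither overlapped between the diets, and neither passed the test in edgeR. *Smpd1*, acid sphingomyelinase, read 50.6, 101 and 110 CPM on NCD and 97.2, 95.2 and 73.9 on HFD, with a log2 fold change of 0.02 (95% interval -0.74 to 0.79) that became -0.24 without NCD replicate 1.

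Of the 8 membrane and cholesterol export genes, 2 were higher over 6 mice and 4 without NCD replicate 1, with a median log2 fold change of 0.64. *Cd68* (NCBI gene 12514, chr11:69664213-69666170), a heavily glycosylated protein of macrophage lysosomes, read 20.2, 52.5 and 36.5 CPM on NCD and 466, 238 and 279 on HFD. The diets were far apart, with a 9.0-fold difference (log2 fold change 3.17 ± 0.46 SE, edgeR adjusted p = 0.0231). *Npc1*, which moves cholesterol out of the lysosome, read 28.9, 46.3 and 39.8 CPM on NCD and 114, 81.0 and 96.2 on HFD, a 2.53-fold difference without overlap (adjusted p = 0.0298 from edgeR). It shares 323 bases with *Rmc1*, whose log2 fold change was 0.08. *Npc2*, the soluble partner that hands cholesterol to *Npc1*, read 436, 619 and 732 CPM on NCD and 1303, 915 and 938 on HFD. Its 1.77-fold difference did not pass edgeR's test in either fit (adjusted p = 0.147 over 6 mice). DESeq2 called *Npc2* higher over 6 mice (adjusted p = 0.0245).

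The structural membrane proteins had smaller fold changes than *Cd68*. *Cd63*, a tetraspanin of late endosomes, read 113, 164 and 216 CPM on NCD and 343, 306 and 388 on HFD, with a log2 fold change of 1.07 (adjusted p = 0.069 from edgeR) that was 0.88 without NCD replicate 1 (adjusted p = 0.0327). A stretch of 812 of its bases is 98.5% identical to *Cd63-ps*, which was not analysed here. *Scarb2*, the receptor that carries glucocerebrosidase to the lysosome, had tight groups, 200, 198 and 188 CPM on NCD and 263, 279 and 262 on HFD. Its 1.37-fold difference passed the test without NCD replicate 1 (adjusted p = 0.045 from edgeR) and not over 6 mice (adjusted p = 0.113).

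*Lamp1* and *Lamp2*, the abundant glycoproteins of the lysosomal membrane, had log2 fold changes of 0.33 (95% interval -0.29 to 0.94) and 0.25 (95% interval -0.20 to 0.69). Their diets did not overlap, though the margin was small: *Lamp1* read 609, 759 and 799 CPM on NCD and 1031, 836 and 848 on HFD. *Mcoln1*, the calcium channel of the lysosome, read 37.4, 36.6 and 41.4 CPM on NCD and 38.9, 33.5 and 32.1 on HFD, with a log2 fold change of -0.14 (95% interval -0.48 to 0.20).

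**Figure D2:**
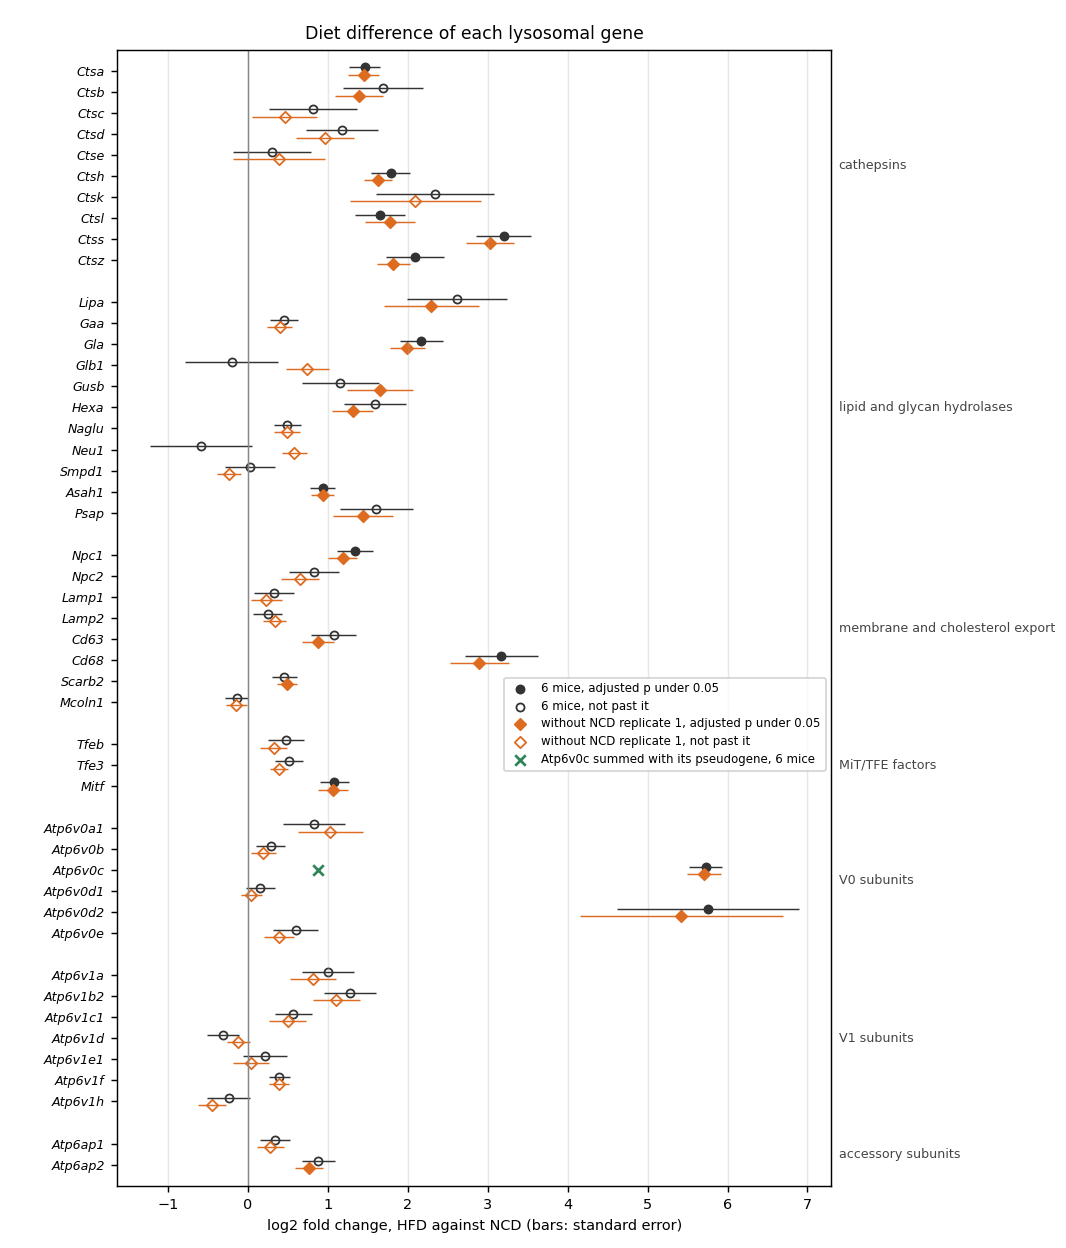
Log2 fold change of each lysosomal gene, HFD against NCD, with its standard error as a bar, over 6 mice (grey circles) and without NCD replicate 1 (orange diamonds), where filled symbols passed edgeR's test. Most symbols lie right of 0, *Ctss*, *Cd68*, *Atp6v0c* and *Atp6v0d2* lie farthest right, and the green cross at 0.88 is *Atp6v0c* counted together with its pseudogene.

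Of the 15 pump genes 2 were higher over 6 mice and 3 without NCD replicate 1, with a median log2 fold change of 0.57, beside 10 and 17 of the 32 other lysosomal genes, with a median of 1.08. Whether the pump and the other genes differ was not tested.

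*Atp6v0c* (NCBI gene 11984, chr17:24163865-24169678) encodes the proteolipid that forms the rotating ring of V0. Its counts were 144, 264 and 266 in NCD replicates 1, 2 and 3 and 15136, 17139 and 16278 in HFD replicates 1, 2 and 3, which gave a 52.9-fold difference (log2 fold change 5.72 ± 0.20 SE, edgeR adjusted p = 0.00066). The pseudogene *Atp6v0c-ps2*, 99.8% identical to it over 465 bases, showed the reverse: 3616, 7932 and 7496 counts on NCD and 2, 4 and 5 on HFD. The pseudogene thus took 96.2% to 96.8% of the counts of the pair in every NCD library and 0.0132% to 0.0307% in every HFD library. The switch followed the diet in every library. The sources used here do not say how reads matching both genes were assigned, or whether both diets were processed alike. The separate values of the pair are therefore uncertain, and a processing difference between the diets was not tested.

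Counted together, the pair stood at 114, 137 and 144 CPM on NCD and at 262, 205 and 259 on HFD. The diets of the sum did not overlap, and the difference was 1.84-fold (log2 fold change 0.88 ± 0.19 SE, edgeR adjusted p = 0.0465). Without NCD replicate 1 the log2 fold change of the sum was 0.80 (adjusted p = 0.0253). Without any one of the other 5 mice it lay between 0.83 and 1.00 and did not pass the test (adjusted p = 0.0902 to 0.169), so that with the pair summed no lysosomal gene passed when NCD replicate 2, NCD replicate 3 or any HFD mouse was left out.

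Subunit d, which joins the V0 ring to the central stalk, has a ubiquitous isoform, *Atp6v0d1*, and an isoform known from osteoclasts and macrophages, *Atp6v0d2* (NCBI gene 242341, chr4:19876838-19922566). *Atp6v0d2* read 0.944, 3.83 and 1.82 CPM on NCD and 283, 33.0 and 44.9 on HFD. All HFD mice lay far above the NCD mice, and HFD replicate 1 was 7.28 times the mean of the other HFD mice. The difference was 54.1-fold (log2 fold change 5.76 ± 1.14 SE, edgeR adjusted p = 0.0398), and with NCD replicate 1 and HFD replicate 1 left out the log2 fold change was 3.78 (adjusted p = 0.00913). *Atp6v0d1* was nearly flat, at 86.5, 107 and 125 CPM on NCD and 124, 111 and 119 on HFD (log2 fold change 0.16, 95% interval -0.28 to 0.59).

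The ratio of the 2 isoforms does not depend on scaling between libraries. The log2 ratio of *Atp6v0d2* to *Atp6v0d1* counts was -6.50, -4.80 and -6.09 on NCD and 1.19, -1.75 and -1.40 on HFD, with means of -5.79 ± 0.887 and -0.655 ± 1.61 (SD, n = 3 mice). The difference was 5.14, with p = 0.1 in a two-sided exact permutation test, which cannot go lower with 3 mice in each group. Per kilobase, *Atp6v0d2* made up 0.695%, 2.25% and 0.929% of both isoforms on NCD and 59.4%, 16.0% and 19.5% on HFD.

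**Figure D3:**
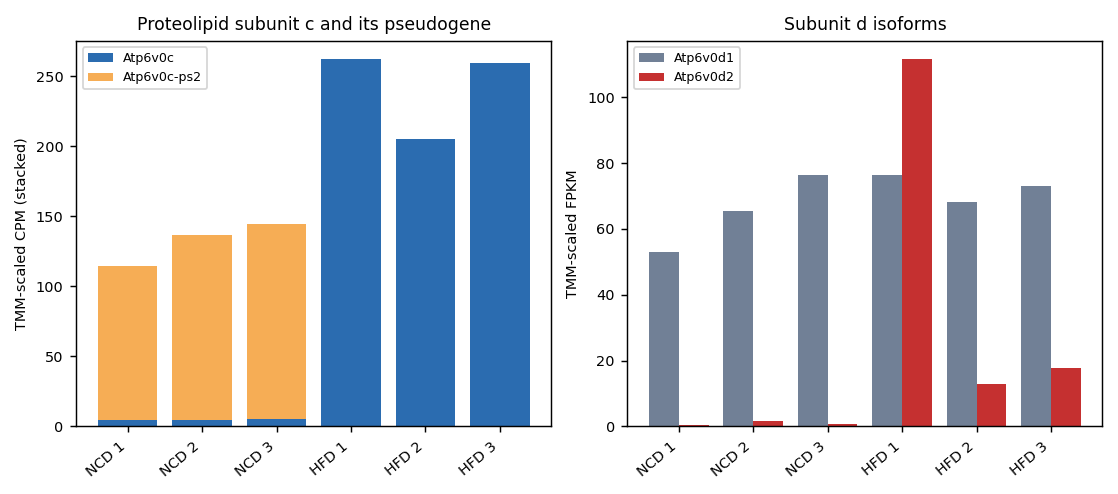
Left, stacked TMM-scaled CPM of *Atp6v0c* and its pseudogene in each mouse: the pseudogene takes over 96% of the bar on NCD and almost none on HFD, while the whole bar grows from 114 to 144 CPM on NCD to 205 to 262 on HFD. Right, TMM-scaled FPKM of the subunit d isoforms in each mouse: *Atp6v0d1* is level, and *Atp6v0d2* is seen on HFD, highest in HFD replicate 1.

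The other V0 subunits did not pass edgeR's test over 6 mice or without NCD replicate 1. *Atp6v0a1*, which forms the proton path together with the ring, read 235, 168 and 160 CPM on NCD and 528, 216 and 254 on HFD, so that NCD replicate 1 exceeded HFD replicate 2. Its log2 fold change was 0.83 (adjusted p = 0.216 from edgeR). Without NCD replicate 1 its diets did not overlap, and the value was 1.03 (adjusted p = 0.129). *Atp6v0b*, a further proteolipid, had a log2 fold change of 0.28 (95% interval -0.15 to 0.72), and *Atp6v0e* one of 0.60 (95% interval -0.09 to 1.28).

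In the V1 sector 0 of 7 subunits passed edgeR's test over 6 mice and 0 without NCD replicate 1, while DESeq2 called 3 higher, and the median log2 fold change was 0.39. The subunits that bind ATP had the largest values. *Atp6v1b2* read 92.2, 134 and 155 CPM on NCD and 423, 226 and 275 on HFD, with a log2 fold change of 1.28 (adjusted p = 0.0648 from edgeR). *Atp6v1b2* passed edgeR's test over 6 mice with total counts outside the secretory genes, and without NCD replicate 1 and HFD replicate 1 (adjusted p = 0.0295). *Atp6v1a* read 76.1, 127 and 122 CPM on NCD and 304, 161 and 188 on HFD, with a log2 fold change of 1.00 (adjusted p = 0.107). Neither of these genes overlapped between the diets. *Atp6v1c1* and *Atp6v1f* followed at 0.57 and 0.39, also without overlap, and the stalk subunit *Atp6v1e1* at 0.21 with overlap.

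*Atp6v1d* and *Atp6v1h* were the pump genes with negative values. *Atp6v1h*, the subunit that regulates coupling of V1 to V0, read 63.2, 106 and 115 CPM on NCD and 97.8, 70.4 and 71.6 on HFD, and its log2 fold change was -0.24 (95% interval -0.90 to 0.42). With NCD replicate 1 and HFD replicate 1 left out it was the only lysosomal gene called lower (log2 fold change -0.63, adjusted p = 0.0213 from edgeR). In that fit 3865 of 15396 genes of the whole table were called, 2111 of them higher. *Atp6v1d* read 104, 67.4 and 80.8 CPM on NCD and 68.9, 60.4 and 73.1 on HFD (log2 fold change -0.32). Of the accessory subunits, *Atp6ap2*, also known as the prorenin receptor, read 55.7, 65.9 and 86.0 CPM on NCD and 141, 112 and 129 on HFD. It passed the test without NCD replicate 1 (log2 fold change 0.76, adjusted p = 0.0359) and not over 6 mice (0.88, adjusted p = 0.0568). *Atp6ap1* had a log2 fold change of 0.34 (95% interval -0.11 to 0.80).

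HFD replicate 1 had the highest HFD value in 36 of the 47 lysosomal genes, with a median ratio of 1.29 to the mean of the other HFD mice. The ratio exceeded 2 in 5 genes, *Ctsk*, *Lipa*, *Atp6v0d2*, *Gusb* and *Atp6v0a1*. The same ratio had a median of 1.18 over the 15 macrophage markers and went both ways among them. It was highest for *Gpnmb* (5.93), *Itgax* (4.28) and *Trem2* (2.54) and lay below 1 for *Fcgr1* (0.342), *Cd14* (0.403), *Itgam* (0.645), *Fcer1g* (0.735), *Mrc1* (0.758) and *Ptprc* (0.804). Their part in these ratios was not tested. How often HFD replicate 1 was highest over all genes was not counted.

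NCD replicate 1 had the lowest NCD value in 34 of the 47 genes and the highest in 8. It lay below 0.5 times the mean of the other NCD mice in 8 genes and above 2 times that mean in 3, *Gusb*, *Glb1* and *Neu1*. Leaving it out added 8 calls and removed none of the 12. How often this library was lowest over all genes was not counted.

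The macrophage markers were higher on HFD beside the lysosomal genes. Of 15 markers 8 were higher over 6 mice and 13 without NCD replicate 1, with a median log2 fold change of 2.53. Their summed level was 527, 1105 and 1013 CPM on NCD and 5271, 2951 and 3694 on HFD, and that of the 47 lysosomal genes was 7265, 9993 and 10546 CPM on NCD and 28354, 17849 and 20652 on HFD. In both sums HFD replicate 1 was highest and NCD replicate 1 lowest. That order was not particular to them. The endothelial markers shared it, with sums of 214, 637 and 724 CPM on NCD and 849, 714 and 714 on HFD. The fibroblast sum was also lowest in NCD replicate 1 but highest in HFD replicate 2. Among the defining macrophage markers, *Adgre1*, the F4/80 antigen, read 25.5, 57.2 and 36.2 CPM on NCD and 418, 210 and 233 on HFD. *Mertk* differed little (log2 fold change 0.23). No macrophage marker was at 0 in any library. The part of macrophage number in the lysosomal values was not tested.

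Adipocyte markers did not rise with them. Of 11 markers 0 were higher and 0 lower over 6 mice with edgeR, and without NCD replicate 1, 5 were lower, with median log2 fold changes of -0.54 and -0.95 (DESeq2 called 2 lower over 6 mice). Their sums were 8883, 36634 and 47802 CPM on NCD and 21218, 20153 and 15747 on HFD. Of the 5 fibroblast markers *Col1a1* was higher over 6 mice with edgeR (log2 fold change 2.11), and DESeq2 called 3 higher. Without NCD replicate 1 edgeR also called *Col3a1* higher (1.34, adjusted p = 0.0304). Of the 5 endothelial markers none was called over 6 mice by edgeR or by DESeq2. Without NCD replicate 1 *Pecam1* was higher (0.55, adjusted p = 0.0496 from edgeR). The T cell markers summed to between 9.13 and 16.0 CPM.

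Lysosomal hydrolases outside the 47 genes were also higher on HFD where they were called. Of 31 tested, 7 were higher over 6 mice and 14 without NCD replicate 1, with a median log2 fold change of 0.66, and 0 were lower in edgeR or DESeq2. The 5 with the smallest adjusted p included *Manba*, beta-mannosidase, which read 17.3, 17.4 and 17.6 CPM on NCD and 41.5, 39.2 and 37.7 on HFD (adjusted p = 0.0194 from edgeR). *Lgmn*, the asparaginyl endopeptidase that activates cathepsins, read 50.4, 118 and 93.2 CPM on NCD and 654, 685 and 1035 on HFD (log2 fold change 3.18, adjusted p = 0.0219 from edgeR). In *Lgmn* HFD replicate 3, not 1, was highest.

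Other membrane and sorting proteins of the lysosome had a median near 0. Of 20 tested, 2 were higher over 6 mice, *Laptm5*, a protein of blood cell lysosomes (log2 fold change 2.38), and *Cln3* (1.07), and the median was 0.06. Without NCD replicate 1, 3 were higher and 1 lower. Of 7 other pump subunits tested, 1 was higher: *Tcirg1*, the a3 isoform of V0 known from osteoclasts and immune cells, read 39.8, 61.9 and 54.9 CPM on NCD and 264, 155 and 234 on HFD (log2 fold change 2.06, adjusted p = 0.022 from edgeR). The median of these subunits was -0.08.

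Genes that deliver cargo to the lysosome or sense nutrients on it differed little as groups. Among 17 autophagy genes 0 passed edgeR's test over 6 mice and 1 was higher without NCD replicate 1, while DESeq2 called 2 higher and 1 lower, and the median log2 fold change was -0.03. Among 15 genes of nutrient signalling at the lysosome 1 was higher, *Fnip2*, a partner of folliculin (log2 fold change 1.32, adjusted p = 0.0431 from edgeR), and the median was -0.09.

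**Figure D4:**
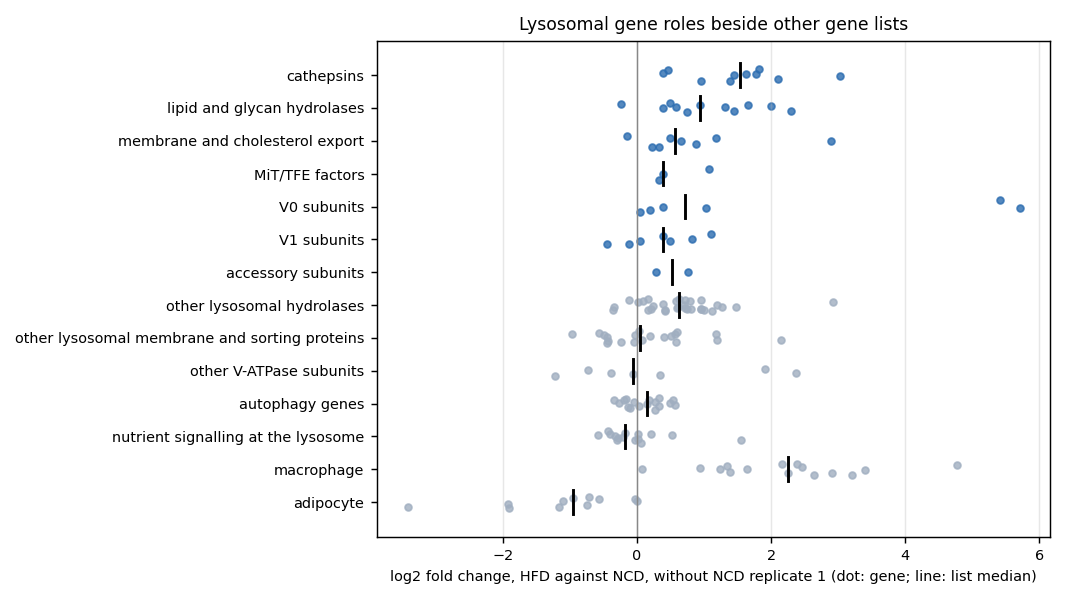
Log2 fold change, HFD against NCD, without NCD replicate 1, of each lysosomal gene by role (blue) and of each gene of other lists (grey), with the median of each group as a vertical line; *Atp6v0c* is drawn from its own counts. The medians lie at 1.53 for cathepsins, 0.93 for lipid and glycan hydrolases, 0.39 for V1 subunits, 2.26 for macrophage markers and -0.95 for adipocyte markers.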

How the data were processed

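RNA-seq libraries of gWAT (3 NCD, 3 HFD) were analysed. The authors deposited raw read counts per gene and library, without normalization, by NCBI gene identifier. The submitters' processing notes name bcl2fastq 2.20.0, Trimmomatic, HISAT2 2.1.0, StringTie 1.3.4d, DESeq2 and the builds mm10 and GRCm38, with no role for each. Which tool counted, the annotation and any filter were not given in the sources used here. Columns without a sample numbered 0.

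Symbols came from NCBI's annotation of GRCm38.p6 (19742 of 19790 identifiers, the other 48 holding 0.629% of counts), exon lengths for FPKM from GENCODE vM21, and promoters from RefSeq. Counts were filtered with filterByExpr (minimum count 10, total 15), scaled by TMM and tested with edgeR 4.0.16 in R 4.3.3 (glmQLFit, glmQLFTest, adjustment over 15241 genes). Standard errors (SE) were obtained from the log2 fold change and its F statistic. DESeq2 1.42.0, no filter, median-of-ratios scaling, a replicate block and leaving out each mouse were alternatives, and total counts outside the secretory genes was a further scaling. Summing *Atp6v0c* with its pseudogene and leaving out both first replicates were chosen after seeing the data. Near-identical transcripts were found with BLAST 2.17.0 (at least 90% identity over 200 bases). Matches to transcripts not named above reached 977 bases for *Ctsl*, 671 for *Ctsd*, 465 for *Atp6v0c*, 438 for *Atp6ap2* and 354 for *Ctsh*. For *Atp6v1a* and *Atp6v1f* they reached 296 and 202 bases. The procedure was tested on simulated data. The simulation held no library set apart by seminal vesicle RNA and no switch between a gene and its pseudogene, so it does not cover these features.

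The members and the gene lists were chosen with earlier results of these data known. All 47 members may be named, with cell type markers and, in each other list, at most 5 genes past the threshold; *Mertk*, *Pltp*, *Fdft1*, *Rmc1*, *Neurl2*, *Tmem202* and *Cd63-ps* are named for their place beside a result. Depth was 49575113 to 66360046 counts per library, so the spread between mice, with a common biological coefficient of variation of 0.424, limits the precision.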

Additional observations from a re-analysis of the deposited data

How the results depend on the processing

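The number of lysosomal genes higher on HFD was 12 over 6 mice. It was 27 with DESeq2 and 1 with the replicate block. With each mouse left out in turn it was between 1 and 20 (20 without NCD replicate 1, 1 without any other). It was 21 without NCD replicate 1 and HFD replicate 1, where 1 gene, *Atp6v1h*, was lower. In that fit 3865 of 15396 genes of the whole table were called, 2111 of them higher. With *Atp6v0c* and its pseudogene summed the number was 12. It was then between 0 and 20 with each mouse left out in turn (20 without NCD replicate 1, 0 without any other). The number was 12 without a filter and with median-of-ratios scaling, beside 644 of 19056 and 850 of 15241 genes higher. With total counts outside the secretory genes it was 17, beside 1145 of 15241 genes higher. The median log2 fold change of the 47 genes stayed positive in every fit, between 0.61 and 0.98. The labels do not say that replicate numbers mark shared mice, and deviations of same-numbered libraries were correlated at -0.06, -0.05 and 0.01, so the replicate block, under which 12 genes of the whole table passed, has no basis in the design.

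The direction of the log2 fold change turned for 6 genes, all with a value not past the test over 6 mice. With mice left out, *Ctse* ranged from -0.0024 (without NCD replicate 3) to 0.62, *Glb1* from -0.50 to 0.74 (0.74 without NCD replicate 1, 0.43 also without HFD replicate 1, 0.053 with the replicate block), and *Neu1* from -0.93 to 0.63 (0.58 without NCD replicate 1). *Smpd1* ranged from -0.32 to 0.24 (-0.24, -0.04 and -0.02 without NCD replicate 1, HFD replicate 1 and HFD replicate 2), *Atp6v1e1* from -0.20 to 0.41 (-0.01 without HFD replicate 1), and *Atp6v0d1* from -0.013 (without both first replicates) to 0.31. The cause was not tested. Counting error is small for all members but *Ctse* and, on NCD, *Atp6v0d2* (31, 229 and 98 counts in NCD replicates 1, 2 and 3).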
